A study of Mus musculus with 3 samples.

Results

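Class-switched B cells, limited to those low in the plasma cell gene *Jchain*, were examined in the spleens of WT mice and of the *BCL2* models 3′RR-*BCL2* and Igκ-*BCL2*. A cell counted as switched when at least 5 of its unique molecular identifiers (UMIs, each standing for 1 captured RNA molecule) came from the heavy chain constant genes *Ighg1*, *Ighg2b*, *Ighg2c*, *Ighg3*, *Igha* or *Ighe*, when these outnumbered the UMIs of *Ighm* and *Ighd*, and when it held fewer than 10 UMIs of *Jchain*, the joining chain of secreted IgM and IgA. Of 25882 barcodes, 22747 passed the cell filter, and 945 of these were switched cells, 27 in WT, 539 for 3′RR-*BCL2* and 379 for Igκ-*BCL2*. They were compared within each library with 21173 unswitched cells, which held at least 5 UMIs of *Ighm* and *Ighd* and more of these than of the switched genes. Since these genes chose the cells, their levels are given as a description.

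Each genotype was represented by 1 library, made from the spleen at day 10 after SRBCs (sheep red blood cells) were injected once into the peritoneum of all 3 groups. The 3′RR-*BCL2* mice carried a human *BCL2* cassette with its own promoters as a randomly inserted transgene under a core of the IgH 3′ regulatory region, an enhancer region active mainly in mature and activated B cells. In Igκ-*BCL2* mice the same cassette replaced the Jκ segments just before the Eκ enhancer, so that this allele cannot make a κ chain. Mice of both models are described as hemizygous. Both *BCL2* models have a mixed B6 and 129 background, and neither the age nor the number of mice behind a library is stated for this experiment. Human *BCL2* is not analysed here, as only mouse genes were counted.

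In class switch recombination an activated B cell joins its rearranged variable region to a constant gene further downstream, which changes the antibody class but not the antigen bound. The reaction needs breaks in the switch regions before each constant gene, which are then joined by DNA repair factors. Switched cells can enter or stay in germinal centers (GCs), where they divide and are selected. They can also leave as resting memory B cells or as plasma cells. The limit on *Jchain* was set against plasma cells, but some of the cells kept still held *Jchain* or other plasma cell RNA.

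The libraries held 37433924 to 62777659 UMIs. Switched cells were deeper than unswitched cells in each, with medians of 7506, 6163 and 5901 UMIs against 5050, 5256.5 and 4781 in the order WT, 3′RR-*BCL2*, Igκ-*BCL2* that is kept below. No doublet caller was run, and 3, 64 and 47 switched cells held at least 5 UMIs of both kinds of constant gene. *Ddx3y*, a gene of the Y chromosome, made up 139 and 196 UMIs per 1000000 in switched cells of WT and Igκ-*BCL2* and had 0 UMIs in those of 3′RR-*BCL2*, so sex and genotype cannot be told apart where 3′RR-*BCL2* is compared with the others. By its label only the WT library came from sorted B cells and the others from whole tissue, while the methods describe magnetic negative selection for all. Of 10 T cell markers 8, 4 and 6 had 0 UMIs in switched cells, but 3 of them are the *Cd3* genes by which cells were removed, and the list summed to 50.6, 36.7 and 22.9 UMIs per 1000000, against 18.8, 21.9 and 17.8 in unswitched cells. Myeloid markers summed to 428, 7.05 and 5.09 in switched and 18.3, 7.78 and 6.45 in unswitched cells, with 6, 6 and 7 of 10 at 0 UMIs in switched cells. In WT this rested on a single cell, which held 88 of the 89 *Lyz2* UMIs. A list of natural killer, erythroid and platelet genes summed to 23.0, 27.4 and 87.8 against 8.78, 16.9 and 6.83, and 9, 7 and 6 of its 10 genes had 0 UMIs. One switched Igκ-*BCL2* cell held 57 of the 69 *Hbb-bs* UMIs. Barcodes shared by libraries included 1, 1 and 0 switched cells.

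The constant genes lie in a row on chromosome 12 of GRCm38, on the minus strand, in the order *Ighm* (113418558 to 113422730), *Ighd* (113406604 to 113416324), *Ighg3* (113356224 to 113361232), *Ighg1* (113325240 to 113330523), *Ighg2b* (113302965 to 113307933), *Ighg2c* (113285325 to 113288932), *Ighe* (113269260 to 113273248) and *Igha* (113254830 to 113260236). Calling an isotype from 3′ reads requires that the 4 γ genes differ near their ends. Over the last 300 coding bases of the secreted forms, identity ran from 66.3% for *Ighg2c* and *Ighg3* to 76% for *Ighg2b* and *Ighg2c*. The last 60 coding bases of the secreted forms are shown. Other forms were not compared, and where the counted reads fall was not tested. Capitals mark the 29 positions that are not the same in all 4 genes, and lower case the 31 that are.
*Ighg1* (chr12:113328979-113329038): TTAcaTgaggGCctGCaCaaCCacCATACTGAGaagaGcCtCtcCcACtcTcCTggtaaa
*Ighg2b* (chr12:113306392-113306451): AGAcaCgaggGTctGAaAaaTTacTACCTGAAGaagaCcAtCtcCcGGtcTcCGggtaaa
*Ighg2c* (chr12:113287392-113287451): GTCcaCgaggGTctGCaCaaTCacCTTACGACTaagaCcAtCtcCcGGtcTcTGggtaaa
*Ighg3* (chr12:113359668-113359727): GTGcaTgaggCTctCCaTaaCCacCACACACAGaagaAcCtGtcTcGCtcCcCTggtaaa

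Switched cells made up 0.272% of the kept WT cells (exact 95% interval 0.179 to 0.395), 8.21% of 3′RR-*BCL2* cells and 6.07% of Igκ-*BCL2* cells. The share was 30.2-fold that of WT for 3′RR-*BCL2* (20.5 to 46.3) and 22.3-fold for Igκ-*BCL2* (15.1 to 34.4). Both *BCL2* libraries lay far above WT by counting error, and 3′RR-*BCL2* was 1.35-fold Igκ-*BCL2* (1.18 to 1.55). This last order depended on the limit on *Jchain*: with at most 1 *Jchain* UMI allowed the shares were 0.151%, 4.01% and 4.26%. Intervals of shares, of counts (Poisson) and of their ratios cover counting error only. With 1 library per genotype no test between genotypes was made, and whether the sorting differed, as the labels have it, and its part in these shares was not tested.

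The UMIs that chose the switched cells lay as follows. Their median was 14, 12 and 13 switched UMIs per cell, with middle ranges of 8 to 21, 8 to 18 and 9 to 19 and highest values of 41, 68 and 58. At the same time their median for *Ighm* and *Ighd* was 1 UMI in each library, against 20, 22 and 24 in unswitched cells, and 12, 224 and 152 of them (44.4%, 41.6% and 40.1%) had 0. Near the limits, 4, 79 and 44 switched cells held 5 or 6 switched UMIs, while 4, 78 and 30 cells fell just short with 3 or 4. Of the switched cells 4, 98 and 39 held 5 to 9 *Jchain* UMIs and 13, 163 and 202 held 0, whereas 9, 78 and 20 cells were left out with 10 to 19 and 6, 15 and 8 with 20 or more. Without the limit on *Jchain*, which cut through a continuous range, 42, 632 and 407 cells would have been counted.

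UMIs of the switched genes were also found outside this class. At least 1 switched UMI was held by 5.68%, 18.7% and 23.6% of unswitched cells. Of the few cells with at least 2 UMIs of *Cd3* genes 0 of 18, 4 of 14 and 7 of 16 had a switched UMI, at median depths of 4969.5, 5724.5 and 7758.5 UMIs. These are no clean measure of free RNA, since 8, 6 and 12 of them also met the limits for unswitched cells. The switched UMIs of unswitched cells are not read as expression. One *Cd3* cell of 3′RR-*BCL2* met the limits for switched cells, with 298 switched UMIs, and was left out. Among the barcodes that the cell filter removed, 27 of 1313, 143 of 999 and 52 of 775 met the limits, which are 2.06%, 14.3% and 6.71%.

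**Figure D1:**
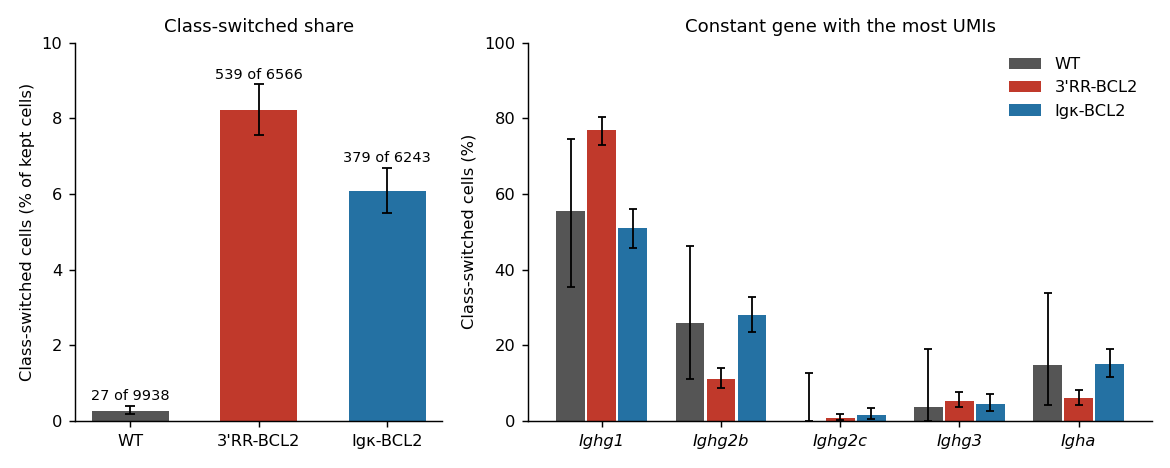
Left, switched cells as a share of the kept cells of each library in percent, with exact 95% intervals of counting error and the numbers of cells above the bars; right, the isotypes of the switched cells in percent. The shares are 0.272% in WT, 8.21% for 3′RR-*BCL2* and 6.07% for Igκ-*BCL2*, and IgG1 is the most frequent isotype in each library, at 55.6%, 76.8% and 50.9%.

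IgG1 was the main isotype in all 3 libraries, and more so in 3′RR-*BCL2* than in Igκ-*BCL2*. By the constant gene with the most UMIs, 15 of 27 WT cells were *Ighg1* (55.6%, 35.3 to 74.5), 414 of 539 for 3′RR-*BCL2* (76.8%, 73.0 to 80.3) and 193 of 379 for Igκ-*BCL2* (50.9%, 45.8 to 56.1). The interval of 3′RR-*BCL2* lay above that of Igκ-*BCL2* and overlapped that of WT. *Ighg2b* was the next, with 7, 60 and 106 cells (25.9%, 11.1% and 28.0%), and *Igha*, the class of mucosal antibody, followed with 4, 32 and 57 (14.8%, 5.94% and 15.04%). WT and Igκ-*BCL2* thus had nearly the same make-up, although the 27 WT cells leave wide intervals. *Ighg3*, a class made in T-independent responses, was found in 1, 29 and 17 cells and *Ighg2c* in 0, 4 and 6. The last count may be affected by the background of the mice, as the 129 strain carries *Ighg2a* at this place and whether its reads count to *Ighg2c* was not tested. No cell was *Ighe*, whose UMIs were 0, 22 and 20 over all switched cells.

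The assignment was sharp for most cells. All switched UMIs came from 1 gene in 23, 384 and 237 cells (85.2%, 71.2% and 62.5%), and 0, 2 and 9 cells had a tie. Summed over switched cells, *Ighg1* made up 1284, 1656 and 1313 UMIs per 1000000 of all UMIs against 7.31, 53.5 and 30.4 in unswitched cells, while *Ighg2b* made up 359, 237 and 645 and *Igha* 221, 126 and 319 in switched cells. These are the UMIs that chose and assigned the cells, and no separate measure of the isotypes.

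The light chain was not part of the choice. Of switched cells with at least 5 light chain UMIs of which at least 80% were of one kind, 1 of 12 was mostly λ in WT (8.33%, 0.211 to 38.5), 15 of 374 for 3′RR-*BCL2* (4.01%, 2.26 to 6.53) and 39 of 213 for Igκ-*BCL2* (18.3%, 13.4 to 24.2). Unswitched cells had 6.11%, 6.03% and 42.6% (40.9 to 44.3 in Igκ-*BCL2*). Cells of Igκ-*BCL2*, where an allele lacks Jκ, were thus more often λ than those of 3′RR-*BCL2* in both classes, and its switched cells were less often λ than its unswitched cells, with intervals that do not overlap. A further 15, 160 and 163 switched cells had both kinds mixed. At 90% of at least 10 UMIs the share of switched cells was 0%, 7.55% and 32.9%, and that of unswitched cells 15.1%, 15.3% and 68.1%, so the level rests on the limit, whereas Igκ-*BCL2* stayed below its unswitched cells. Variable heavy genes could be called in only 1, 12 and 5 switched cells, too few to describe.

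GC genes set the switched cells apart. A cell was counted as a GC cell when, after thinning to 2000 UMIs, at least 2 of 8 GC genes had a UMI in it, among them *Mef2b*, *Mybl1*, *Hpse*, *Nuggc*, *Rassf6*, *Rgs13* and *Efnb1*. Among switched cells 29.6% (13.8 to 50.2) were GC cells in WT, 38.3% (34.1 to 42.7) for 3′RR-*BCL2* and 20% (16.0 to 24.5) for Igκ-*BCL2*, against 0.416%, 3.31% and 2.45% of unswitched cells. Switched cells lay far above unswitched cells in each library, and 3′RR-*BCL2* above Igκ-*BCL2*, while WT overlapped both. At full depth the shares were 51.9%, 68.3% and 40.4% against 1.64%, 9.23% and 5.19%. At full depth 0 of 18, 4 of 14 and 1 of 16 *Cd3* cells met the same limit, too few and too mixed with B cell RNA to give a background, and the shares of unswitched cells are not read as GC cells. Thinning left out 0, 25 and 14 switched and 127, 73 and 97 unswitched cells.

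Dividing cells were also more frequent among switched cells. A UMI of *Mki67* or *Top2a*, both expressed in dividing cells, was held by 40.7%, 25.3% and 14.2% of thinned switched cells and by 3.67%, 5.83% and 4.87% of unswitched cells. WT was the highest of the switched cells and the lowest of the unswitched cells. Its interval in switched cells (22.4 to 61.2) overlapped that of 3′RR-*BCL2* (21.6 to 29.3) but not that of Igκ-*BCL2* (10.8 to 18.3). UMIs of at least 4 of 13 plasma cell markers were held by 0%, 5.64% and 1.37% of switched cells, with an exact interval up to 12.8% for 0 of 27 cells, against 0.249%, 0.622% and 0.818%. *Jchain* is one of the 13, and within its limit 29.6%, 44.9% and 27.4% of thinned switched cells still held a UMI of it, against 0.925%, 5.94% and 6.38% of unswitched cells.

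**Figure D2:**
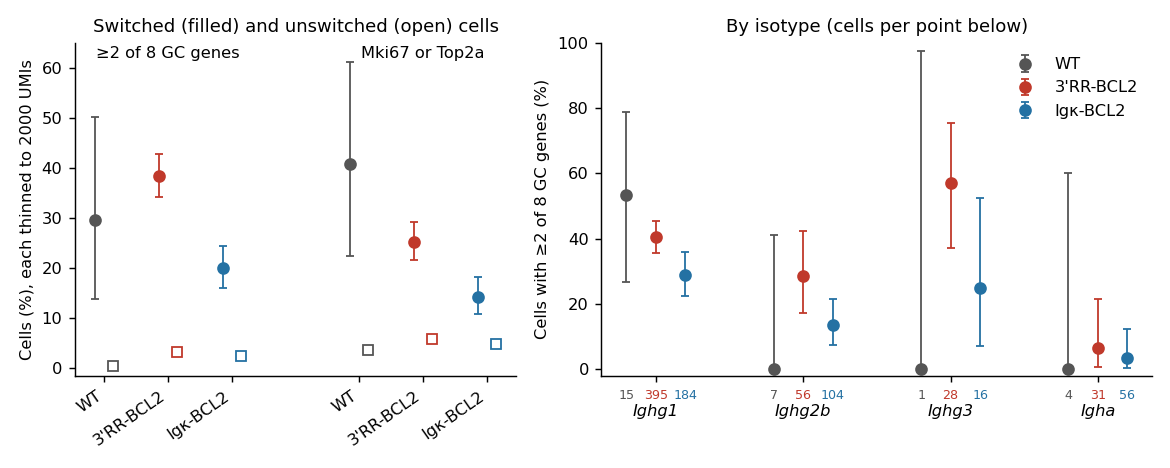
Left, percent of cells thinned to 2000 UMIs with a UMI for 2 or more of the 8 GC genes, and with one for *Mki67* or *Top2a*, with filled circles for switched and open squares for unswitched cells and bars for exact 95% intervals; right, the GC share of switched cells by isotype, with cell numbers below. Switched cells lie above unswitched cells in each library, and of the isotypes drawn, which leave out *Ighg2c*, *Igha* has the lowest GC share in both *BCL2* libraries, at 6.45% and 3.57%.

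The GC share differed with the isotype. After thinning, 160 of 395 *Ighg1* cells of 3′RR-*BCL2* were GC cells (40.5%, 35.6 to 45.5), 16 of 56 *Ighg2b* cells (28.6%, 17.3 to 42.2), 16 of 28 *Ighg3* cells (57.1%, 37.2 to 75.5) and 2 of 31 *Igha* cells (6.45%, 0.791 to 21.4). In Igκ-*BCL2* they were 53 of 184 *Ighg1* cells (28.8%, 22.4 to 35.9), 14 of 104 *Ighg2b* cells (13.5%, 7.56 to 21.6), 4 of 16 *Ighg3* cells (25%, 7.27 to 52.4) and 2 of 56 *Igha* cells (3.57%, 0.435 to 12.3). *Igha* cells thus lay below *Ighg1* cells without overlap of intervals in both *BCL2* libraries, and *Ighg2b* cells did so in Igκ-*BCL2* only, while that of 3′RR-*BCL2* overlapped *Ighg1*. In WT 8 of 15 *Ighg1* cells (53.3%, 26.6 to 78.7), 0 of 7 *Ighg2b* cells (up to 41.0) and 0 of 4 *Igha* cells (up to 60.2) were GC cells, too few to rank. Median depths at full depth were 6372, 5269 and 5168 UMIs for *Ighg1*, *Ighg2b* and *Igha* in 3′RR-*BCL2* and 6550, 5595 and 5139 in Igκ-*BCL2*.

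*Mki67* or *Top2a* were counted by isotype as well. In 3′RR-*BCL2* 26.1% of 395 thinned *Ighg1* cells, 28.6% of 56 *Ighg2b* cells and 9.68% of 31 *Igha* cells held a UMI of either. In Igκ-*BCL2* these were 19.6% of 184, 6.73% of 104 and 7.14% of 56. The *Ighg2b* cells thus stood with *Ighg1* in 3′RR-*BCL2* and with *Igha* in Igκ-*BCL2*.

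Gene expression was then compared between switched and unswitched cells over the 3 libraries, with immunoglobulin genes and *Jchain* left out, by edgeR's quasi-likelihood test on UMIs summed per library and class, with library as a block and Benjamini-Hochberg adjustment. The libraries are of different genotypes, so the spread between them also holds what differs by genotype. Levels below are UMIs per 1000000 without immunoglobulin genes and *Jchain*, in the order WT, 3′RR-*BCL2* and Igκ-*BCL2*, and log2 values are differences between classes, switched over unswitched, with their standard errors. Of 12025 genes tested, 1291 were higher in switched cells, 10.7%, and 1134 were lower, 9.43%. The switched sums behind the test held 217259, 3546081 and 2358404 UMIs, so WT gave the least precise values. The median over all genes was -0.02. Without 3′RR-*BCL2* these counts were 225 and 231, and without Igκ-*BCL2* 621 and 603. Thinned to equal depth they were 712 and 611, and DESeq2 called 617 and 494. Without the 3 switched cells with at least 5 UMIs of *Lyz2* or haemoglobin genes, 1249 and 1148 genes passed.

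Most genes of the GC lists were higher. All 8 GC genes used above passed, with a median log2 of 3.12, as did 9 of 10 other GC genes with a median of 2.64. *Basp1*, which encodes a membrane-bound signalling protein, made up 446, 369 and 194 UMIs per 1000000 in switched cells and 6.94, 37.3 and 25.2 in unswitched cells (log2 3.75 ± 0.15, adjusted p = 6.8e-76), and *S1pr2*, which holds cells within GCs, at 60.4, 74.2 and 42.9 against 1.39, 8.47 and 6.01 (3.22 ± 0.21). Switched cells were high in each library for both genes, least so in Igκ-*BCL2*, and unswitched cells were lowest in WT. *Fas*, the death receptor carried by GC B cells, was at 107, 102 and 86.2 against 7.28, 18.7 and 16.9. *Bcl6*, the master repressor of the GC state, was higher by only 0.90 ± 0.13 with 60.4, 116 and 96.1 against 42.2, 54.4 and 54.9, and WT was the lowest of the switched cells. *Pou2af1* was the one member of the list that did not pass, at 0.26. Of 10 genes of the GC light zone, where cells meet antigen and T cells, 3 were higher and 2 lower, with a median of 0.08.

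Among the genes with the largest differences, chosen by size, *Tox* led with 46.5, 28.0 and 18.0 against 0.429, 1.64 and 1.27 (4.46 ± 0.38, adjusted p = 2.2e-24). This HMG-box factor, best known from T cells, thus lay well apart in all libraries, as did its relative *Tox2* (3.67). *Parm1* (3.79), the actin-bundling gene *Fscn1* (3.82), the cell cycle repressor *E2f8* (3.76), *Osbpl3* (3.76), *Atp11a* (3.65), *Pou3f1* (3.65), the GC marker *Gcsam* (3.50), the cytokine receptor chain *Il2rb* (3.48), *Trerf1* (3.45) and the linker histone gene *H1fx* (3.32) followed, and some were counted at few UMIs, such as *Pou3f1* with 1, 12 and 10. The lower genes with the largest differences all had 0 UMIs in the switched cells of each library. With the level of unswitched cells taken from each library, and against a floor of 3 UMIs over all switched cells, the estrogen receptor gene *Esr1* was at least 7.43-fold lower, *Grk3* at least 6.24-fold, *Ly6c2* at least 6.17-fold, *Mgst1* at least 6.11-fold and *Fbxw10* at least 5.55-fold.

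Of 20 proliferation genes 19 were higher, with a median of 1.25. *Mki67* made up 386, 206 and 52.7 UMIs per 1000000 in switched cells against 11.9, 27.8 and 9.61 (3.25 ± 0.15, adjusted p = 2.1e-62), and the topoisomerase gene *Top2a* 293, 178 and 78.0 against 22.4, 32.6 and 30.6 (2.30 ± 0.14, adjusted p = 2e-41). In switched cells both ran from high in WT to low in Igκ-*BCL2*, but the classes did not overlap. When both classes were limited to at most 1 *Jchain* UMI per cell, which leaves fewer cells, only 6 of the 20 passed and *Birc5* turned to -1.23.

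Resting follicular genes went the other way, with 11 of 12 lower and a median of -0.97. *Ccr7*, a receptor that guides cells to T cell zones, made up 69.7, 63.3 and 125 against 282, 265 and 298 (-1.71 ± 0.13), and *S1pr1*, which guides egress into blood, at 107, 94.2 and 169 against 203, 228 and 304 (-1.06 ± 0.13). Switched cells were low in every library for both genes, least so in Igκ-*BCL2*. The quiescence factor gene *Klf2* differed by -0.74 ± 0.10, but its levels overlapped, with 590, 762 and 1800 against 1363, 1676 and 1711, and switched cells were not low in Igκ-*BCL2*. *Bach2*, which restrains plasma cell formation, was the one gene of the list that was higher (0.50 ± 0.12). Of 12 marginal zone genes 7 were lower and 2 higher, and the lipid-presenting *Cd1d1* had 0, 12 and 2 UMIs in switched cells, which was 0, 3.42 and 0.858 per 1000000 against 33.0, 28.2 and 17.8. Of 14 interferon genes 7 were lower and none higher, with a median of -1.02.

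Plasma cell genes were mixed. Of the 10 plasma cell markers tested 4 were higher and 3 lower. *Sdc1*, the gene of the surface protein CD138, had 0, 2 and 2 UMIs in switched cells, and was lower (-3.31 ± 0.60). The limit on *Jchain* held for switched cells alone, and with fewer than 10 *Jchain* UMIs in both classes the difference was -3.25 and still passed. *Irf4* was lower too (-1.004 ± 0.13), and *Xbp1*, a driver of secretion, did not pass (0.06 ± 0.14, adjusted p = 0.84). *Slpi* was higher with 37.2, 18.8 and 12.01 against 2.06, 2.42 and 2.63 (2.87 ± 0.36), and *Tnfrsf17* had 0 UMIs in switched cells of all libraries.

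Most genes of the switching machinery itself did not pass. Over all genes tested 10.7% were higher and 9.43% lower. Of 30 genes of switch recombination, mismatch and base excision repair and end joining among them, 7 were higher and none lower, with a median of 0.13. Among these were the mismatch repair genes *Msh6* and *Exo1*, the damage kinase gene *Atm*, the damage histone gene *H2afx*, *Shld1* of the end-protecting shieldin complex and *Hmces*, whose product binds abasic DNA. *Hmces* made up 223, 138 and 83.6 against 39.9, 53.7 and 48.0 (1.34 ± 0.14), with switched cells above unswitched cells in all libraries, whereas *Atm*, at 0.38, lost its call in 14 of 16 alternative settings. Of 14 genes tested of the *BCL2* family, 6 were higher, among them the pro-death genes *Bbc3* (1.05 ± 0.25), *Bad* (0.98) and *Bak1* (0.66) and the survival gene *Bcl2l1* (1.16). Mouse *Bcl2* was lower (-0.72 ± 0.14), a call that was lost without WT, without 3′RR-*BCL2* and without the library block. Switched cells lay below unswitched cells for it in WT and in 3′RR-*BCL2*, at 40.5 against 116 in the latter. In Igκ-*BCL2* the classes were level, at 233 against 234. Of 10 MHC class II genes *Cd74* and *H2-Aa* were lower, by small steps (-0.21 and -0.32), and the antigen receptor chain genes *Cd79a* and *Cd79b* were lower too (-0.49 and -0.32).

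Since GC cells are more frequent among switched cells, the cells without GC gene UMIs were compared next. At full depth 11, 87 and 121 switched cells and 8268, 4299 and 4793 unswitched cells held 0 UMIs of the 8 GC genes. Of 11329 genes tested 224 were higher in these switched cells, 1.98%, and 192 lower, 1.69%, and the median over all genes was -0.06. Without 3′RR-*BCL2* the counts were 63 and 42, without Igκ-*BCL2* 44 and 39, thinned to equal depth 49 and 44, without the library block 115 and 79, and by DESeq2 78 and 41. These cells were fewer, and 187 of the 224 higher genes were also higher over all switched cells, which include them.

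Memory B cell genes were among those that were higher. Of 13 such genes 7 were higher and 2 lower, with a median of 0.84, but this number ran from 2 to 7 over the alternatives and was 2 without 3′RR-*BCL2* and also without Igκ-*BCL2*. *Nt5e*, the gene of the ectoenzyme CD73, made up 59.0, 36.4 and 56.5 UMIs per 1000000 against 0.572, 3.05 and 2.43 (4.41 ± 0.51, adjusted p = 3.6e-15), counted as 4, 17 and 38 UMIs in 4, 11 and 26 cells. It thus lay apart in each library and was spread over many cells. *Parm1* was at 73.7, 23.6 and 14.9 against 0.506, 1.10 and 0.658 (4.98 ± 0.59), although its 5 UMIs in WT came from 1 cell. The ligand genes *Cd80* (3.39 ± 0.73) and *Pdcd1lg2* (1.42 ± 0.30), which mark memory subsets, were higher with 2, 7 and 3 and with 5, 21 and 26 UMIs, and both lost the call without either *BCL2* library. *Cd44*, an adhesion receptor of antigen-experienced cells, was at 73.7, 79.3 and 69.8 against 47.4, 38.6 and 26.8 (1.13 ± 0.22), and the chemokine receptor gene *Ccr6* at 103, 94.2 and 108 against 86.1, 69.3 and 46.7 (0.78 ± 0.18). Switched cells were above unswitched cells for both without overlap, most of all in Igκ-*BCL2*, yet *Cd44* lost its call in 4 and *Ccr6* and the SLAM receptor gene *Slamf1* (0.84) in 6 of 16 settings. *Cd38*, an ectoenzyme gene high in resting and memory cells and low in GC cells, was lower with 162, 133 and 158 against 208, 178 and 228 (-0.50 ± 0.15, adjusted p = 0.033), and *Cd84* was lower too (-0.92). *Cd38* lost its call in 7 settings, and over all switched cells its difference was -1.15.

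Genes of the cytoskeleton and its membrane links shifted in part. Of 10 genes *Anxa2*, *Vim*, *Crip1* and *Ahnak* were higher and *S100a11* lower. *Vim*, the intermediate filament gene, made up 605, 272 and 278 against 166, 177 and 113 (1.10 ± 0.13, adjusted p = 7.1e-14), and *Crip1*, a LIM domain gene, 1165, 820 and 753 against 420, 471 and 364 (1.001 ± 0.11, adjusted p = 1.3e-16). WT was the highest for both and the classes lay apart. *Anxa2*, a membrane-binding annexin gene, was at 118, 40.7 and 50.5 against 2.79, 5.34 and 4.28 (3.65 ± 0.43), with 7 of its 8 WT UMIs in 1 cell, and one 3′RR-*BCL2* cell held 49 of the 75 UMIs of *Ahnak* there.

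Resting follicular genes were lower here too, 7 of 12 with a median of -0.53, and none higher. *Satb1*, which encodes a chromatin organizer, was at 103, 144 and 204 against 384, 345 and 380 (-1.15 ± 0.14, adjusted p = 3.5e-13). Switched cells lay below unswitched cells in all libraries, and the call was kept in all 16 settings. *Ccr7* (-0.76 ± 0.14), the complement receptor gene *Cr2* (-1.07), *Foxp1* (-0.58), *Cd55* (-0.81) and *S1pr1* (-0.48) were lower as well, while *Klf2* (0.12 ± 0.10, adjusted p = 0.73) and *Bach2* (0.06) did not pass. For *Ccr7* the call was lost without 3′RR-*BCL2* and without Igκ-*BCL2*.

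Some GC-linked genes were still higher in cells with 0 UMIs of the 8 GC genes. Of 9 other GC genes tested 5 passed, with a median of 1.36. *Basp1* was at 59.0, 154 and 103 against 1.82, 5.17 and 5.06 (4.63 ± 0.36, adjusted p = 3.8e-34), and *Fas* at 59.0, 57.8 and 52.0 against 5.83, 7.42 and 9.29 (2.75 ± 0.36, adjusted p = 5e-12). Switched cells were high in every library, and both calls held in all settings. A count of 0 UMIs does not show that a cell lacks the RNA of the 8 GC genes. Of 18 proliferation genes tested *Mki67*, *Top2a* and *Tyms* were higher, where *Mki67* had 0, 21 and 13 UMIs.

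Other genes with large differences were the adaptor gene *Lcp2* (5.17 ± 0.63), with 14.7, 17.1 and 22.3 against 0.308, 0.848 and 0.329, the poly(A) polymerase gene *Tent5c* (2.76 ± 0.19) with 177, 186 and 147 against 12.9, 23.2 and 28.6, *Cd300lf* (2.90), the glycolysis gene *Hk2* (2.70), *Lacc1* (2.66), the potassium channel gene *Kcnn4* (2.46), *Rhbdf1* (2.98), *Plxnb2* (2.78) and *Cdca7l* (2.48). *Tent5c* and *Lcp2* lay far apart in each library, though *Lcp2* had only 1, 8 and 15 UMIs. Of 7 B-1 cell genes tested *Bhlhe41*, a regulator of B-1a cells, *Spn*, the CD43 gene, and *Sspn* were higher, and *Sspn* stood at 44.2, 25.7 and 11.9 against 2.33, 1.78 and 1.97 (3.39 ± 0.58). The costimulation genes *Cd86* (1.005 ± 0.14) and *Traf1* (1.42 ± 0.21) were higher and *Myc* lower (-0.65 ± 0.16). *Cxcr3*, a receptor for interferon-induced chemokines, had 0, 11 and 2 UMIs and was higher by 3.71 ± 0.74, and *Itgb7*, an integrin gene of gut homing, was at 118, 137 and 131 against 77.6, 87.9 and 84.3 (0.61 ± 0.16). Both lay above unswitched cells except *Cxcr3* in WT. The inhibitory Fc receptor gene *Fcgr2b* was higher (0.71 ± 0.15) and its fellow inhibitory receptor gene *Cd72* lower (-0.90 ± 0.16).

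Among lower genes the early B cell factor *Sox4* had 0 UMIs in these switched cells and was at least 6.36-fold lower, *Cd93*, a marker of recent bone marrow emigrants, at least 3.08-fold, the antiviral *Ifitm3* at least 2.64-fold and *Pcp4* at least 2.34-fold. The sodium pump gene *Atp1b1* had 0, 0 and 2 UMIs, *Tifa* 0, 0 and 1 and *Tsc22d1* 1, 1 and 0, with 21.0 to 33.1 UMIs per 1000000 of *Atp1b1* in unswitched cells. *Ifi27l2a*, an interferon-induced gene, was at 88.5, 255 and 251 against 439, 594 and 493 (-1.20 ± 0.13), and 4 of 14 interferon genes were lower with none higher. None of 29 switch recombination genes passed in edgeR's test, of which 1 was higher and 0 were lower at an unadjusted p under 0.05, and DESeq2 called 0. None of 10 MHC class II genes passed either (0 higher and 1 lower at an unadjusted p under 0.05, 0 by DESeq2). Mouse *Bcl2* did not pass (-0.07 ± 0.15, adjusted p = 0.94), with 251, 83.5 and 253 against 172, 126 and 234, and the pro-death gene *Pmaip1* was higher by 0.62.

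**Figure D3:**
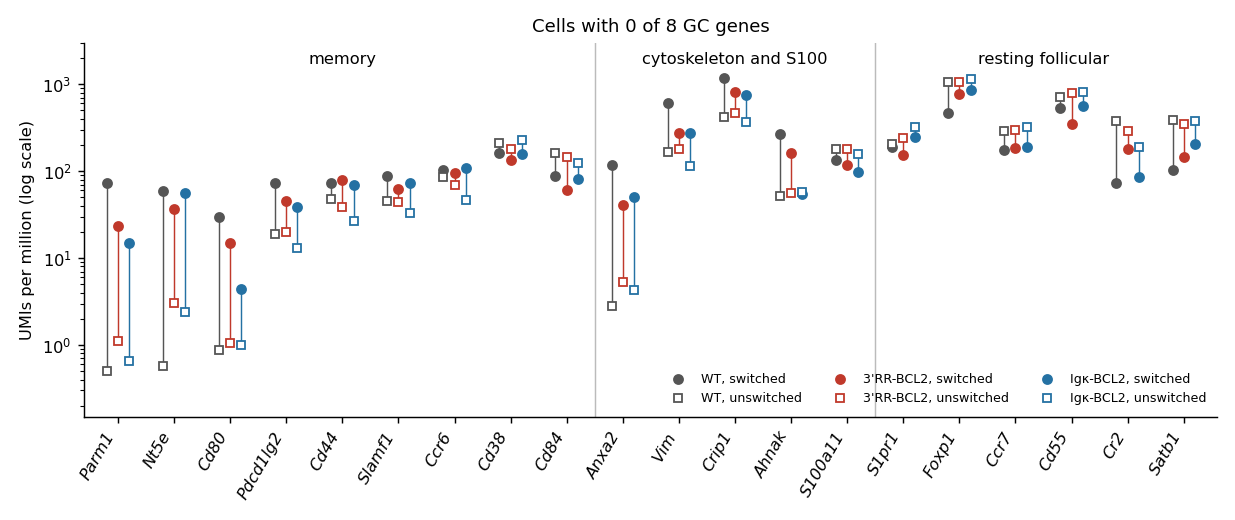
UMIs per 1000000 on a log axis, in cells with 0 UMIs of the 8 GC genes, for memory, cytoskeleton and resting follicular genes that passed an adjusted p of 0.05, with filled symbols for switched and open symbols for unswitched cells of each library. *Nt5e*, *Parm1* and *Anxa2* lie furthest above unswitched cells, at log2 4.41, 4.98 and 3.65, and of the resting follicular genes drawn *Satb1* lies furthest below, at -1.15.

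Among cells with at least 2 of the 8 GC genes at full depth, 14, 368 and 153 cells were switched and 160, 526 and 297 unswitched. Of 9086 genes tested 39 were higher in them than in unswitched cells with such genes, 0.429%, and 128 were lower, 1.41%. The median over all genes was 0.00. Without 3′RR-*BCL2* only 4 and 6 genes passed, without WT 116 and 229, without the library block 5 and 22, and by DESeq2 7 and 24. The 8 GC genes chose these cells and are not read as results. Deeper cells meet this limit more easily, and unswitched cells that met it are not read as GC cells. In 3′RR-*BCL2* and Igκ-*BCL2* the unswitched cells were the deeper ones, with sums of 4779444 and 2566703 UMIs against 2564340 and 1064734 in the switched cells. In WT, with 1388318 against 137535, the switched cells were deeper. The part of this in the differences below was not tested.

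Within this group the switched cells had more of several GC-linked genes and less of resting genes. *Tox* was at 66.0, 33.9 and 27.5 against 15.3, 8.93 and 9.55 (1.82 ± 0.25, adjusted p = 0.00064). *Syne1*, a giant nuclear envelope gene, was at 183, 221 and 264 against 61.4, 104 and 111 (1.21 ± 0.13, adjusted p = 7.3e-05), and *Rgs1*, which damps chemokine signals, at 1189, 1016 and 978 against 339, 553 and 659 (0.99 ± 0.14). Each lay apart in all libraries, and of these *Syne1* kept its call in all 16 settings. *Basp1* (0.98), *Parm1* (1.33), *Hk2* (1.13), *Sema7a* (1.07), *Plxnb2* (1.02), *S1pr2* (0.86) and *Gcsam* (0.90) were higher too. *Plac8* was at 14.7, 19.3 and 9.49 against 459, 216 and 80.4 (-3.52 ± 0.20, adjusted p = 5.9e-09). Unswitched cells of Igκ-*BCL2* were the lowest of the unswitched cells, nearer to the switched cells. Of 12 resting follicular genes 5 were lower, with a median of -0.57, and of 16 homing receptor genes 4 were lower, among them *Ccr7*, *Itga4* and *S1pr1*, and *S1pr2* was higher. *Cd38* was lower (-0.99), and the endosomal sensor gene *Tlr7*, the cytokine receptor gene *Il6st* and *Maml3* were lower at few UMIs.

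None of 20 proliferation genes passed in GC gene cells by edgeR's test, with a median of 0.17. At an unadjusted p under 0.05, 6 were higher and 0 lower, and DESeq2 called 0. *Mki67* was at 609, 266 and 79.7 against 275, 162 and 88.4 (0.58 ± 0.16, adjusted p = 0.083), so that Igκ-*BCL2* did not share the direction of the others. None of 29 switch recombination genes passed, with 4 higher and 1 lower at an unadjusted p under 0.05 and 0 by DESeq2. Of the genes higher in switched cells, 19 were called both among cells with 0 and among cells with at least 2 GC genes, 8.48% of the former and 48.7% of the latter, *Basp1*, *Parm1*, *Crip1*, *Hk2* and *Rgs1* among them. Of the lower genes 71 were shared, 37.0% and 55.5%.

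Single genes were set side by side between the isotypes of switched cells. Values here are UMIs per 1000000 and log2 ratios with counting intervals, without a test. *Ccr7* made up 200 in *Igha* cells of 3′RR-*BCL2* against 54.9 in *Ighg1* cells (log2 1.86, 1.32 to 2.38) and 283 against 63.2 in Igκ-*BCL2* (2.16, 1.72 to 2.61). *Ccr6*, the receptor that guides B cells to intestinal follicles, was at 87.1 against 37.8 (1.203, 0.37 to 1.95) and 129 against 43.5 (1.57, 0.96 to 2.17). *Itgb7* was at 133 against 72.4 (0.88) and 168 against 87.8 (0.94). *Igha* cells were thus above *Ighg1* cells for the 3 genes in both *BCL2* libraries. The reverse held for *S1pr2* (-1.89 and -3.32). *Nt5e* did not separate them (-0.07 and 0.08). These cells were not split by GC genes. The GC share after thinning was 6.45% and 3.57% of *Igha* cells against 40.5% and 28.8% of *Ighg1* cells in 3′RR-*BCL2* and Igκ-*BCL2*. The part of this in the ratios was not tested.

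*Ighg2b* cells were set against *Ighg1* cells in the same way, again without a split by GC genes. *Ccr7* was above *Ighg1* cells by 0.39 for 3′RR-*BCL2* and 1.44 for Igκ-*BCL2*, and *Cd38* by 0.67 and 0.94. *Tbx21*, the factor T-bet that is known for switching to *Ighg2c* and *Ighg2a*, was at 11.5 in *Ighg2b* against 2.18 in *Ighg1* cells of 3′RR-*BCL2* with 4 and 6 UMIs (2.40, 0.13 to 4.47), and had 10 and 0 UMIs in Igκ-*BCL2*. By UMIs *Mki67* went in opposite directions, with 408 in *Ighg2b* against 174 in *Ighg1* cells of 3′RR-*BCL2* (1.22, 0.94 to 1.497) and 16.5 against 64.0 in Igκ-*BCL2* (-1.96, -3.07 to -1.004). These intervals take no account of UMIs that lie together in single cells. By cells with *Mki67* or *Top2a* after thinning, *Ighg2b* and *Ighg1* were nearly level in 3′RR-*BCL2*, at 28.6% and 26.1%, and at 6.73% and 19.6% in Igκ-*BCL2*.

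Switched cells of the 3 genotypes were set side by side last. A gene counted as different when the ratio passed 2-fold with its counting interval outside 1, among genes with at least 20 UMIs in either library. Of 8868 genes 199 were higher in 3′RR-*BCL2* than in Igκ-*BCL2* (2.24%) and 166 lower (1.87%). Of 8751 genes 169 were higher in 3′RR-*BCL2* than in WT (1.93%) and 262 lower (2.99%), and of 8013 genes 274 were higher in Igκ-*BCL2* than in WT (3.42%) and 292 lower (3.64%). The comparisons share libraries, WT holds 27 cells, and no test was possible with 1 library each.

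Switched cells of 3′RR-*BCL2* had more RNA of division than those of Igκ-*BCL2*. Of 20 proliferation genes 13 were called higher and all 20 lay above, with a median log2 of 1.33, against -0.02 for all genes and 0.31 for the list in unswitched cells. The survivin gene *Birc5* was at 32.2 for 3′RR-*BCL2* and 2.57 for Igκ-*BCL2* (3.65, 2.48 to 5.12), the kinetochore gene *Cenpf* at 49.1 and 5.58 (3.14, 2.33 to 4.08), and *Stmn1*, a microtubule regulator, at 125 and 26.2 (2.25, 1.86 to 2.66). The last was at 0.86 in unswitched cells, so the gap was wider among switched cells. In cells with at least 2 GC genes 12 of 20 were called, with a median of 1.27, where 193 of all 8143 genes were called higher and 71 lower. In cells with 0 GC genes the median of the list was 0.28, where 53 of all 4759 genes were called higher and 126 lower. Against WT the list was lower in Igκ-*BCL2*, with 12 of 13 measured genes called and a median of -1.91, and less so in 3′RR-*BCL2* with 2 of 20 and -0.71. *Mki67* made up 52.7 in Igκ-*BCL2* against 386 in WT (-2.87, -3.28 to -2.45), while unswitched cells differed by -0.31. WT, with the fewest switched cells, thus had the highest level of division genes by summed UMIs. By cells with *Mki67* or *Top2a* after thinning, its share (40.7%, 22.4 to 61.2) overlapped that of 3′RR-*BCL2* (25.3%, 21.6 to 29.3).

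Igκ-*BCL2* switched cells stood out from the switched cells of the other libraries for mouse *Bcl2*, heat shock genes and *Wls*. They did not lie above unswitched cells of their own library, with 233 against 234 for *Bcl2*, 44.6 against 45.1 for *Wls* and 1711 against 2301 for *Hspa1b*. *Bcl2* made up 93.0, 40.5 and 233 UMIs per 1000000, and 10 of 27, 114 of 539 and 256 of 379 cells held a UMI of it (37.0%, 21.2% and 67.5%). 3′RR-*BCL2* lay below Igκ-*BCL2* (log2 -2.52, -2.80 to -2.26), against -1.01 in unswitched cells, -1.60 in cells with 0 GC genes and -2.75 in those with at least 2. Whether reads of the human *BCL2* cassette, which both models carry, count to mouse *Bcl2* was not tested. *Wls*, which encodes a carrier of Wnt proteins, was at 1.997 for 3′RR-*BCL2* and 44.6 for Igκ-*BCL2* (-4.48, -5.83 to -3.39), against -1.05 in unswitched cells. The chaperone gene *Hspa1b* was at 23.2 in WT, 288 for 3′RR-*BCL2* and 1711 for Igκ-*BCL2*, and *Hspa1a*, a near-identical copy with which it may share reads, at 0, 199 and 851. Unswitched cells showed the same order, with 6.38, 434 and 919 for *Hspa1a*. *Klf2* was at 1800 in Igκ-*BCL2* and 590 in WT (1.61, 1.35 to 1.87), against 0.33 in unswitched cells, and of 12 resting follicular genes 3 were called higher and 0 lower in Igκ-*BCL2* over WT, with a median of 0.75.

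Between 3′RR-*BCL2* and WT other genes stood apart besides the heat shock genes. *Slc15a2*, a peptide carrier gene, was at 62.8 in 3′RR-*BCL2*, 8.15 in Igκ-*BCL2* and had 0 UMIs in WT, and unswitched cells had a like order with 41.1, 6.36 and 0.250. *Id2*, an inhibitor of E proteins, was at 94.2 against 18.6 (2.34, 0.97 to 4.22), with only 4 UMIs in WT, and at 0.46 in unswitched cells. In switched cells with 0 GC genes its interval included 0 (1.35, -0.61 to 4.45). The proliferation-linked gene *Cdca7* was at 19.7 against 93.0 (-2.24) and at -0.04 in unswitched cells. The lower *Lyz2* and much of the lower *Ctsd* came from the single WT cell described above, which held 34 of the 41 *Ctsd* UMIs. Of the 8 GC genes none was called in either direction between 3′RR-*BCL2* and WT, 1 was higher in 3′RR-*BCL2* than in Igκ-*BCL2* and 2 were lower in Igκ-*BCL2* than in WT.

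**Figure D4:**
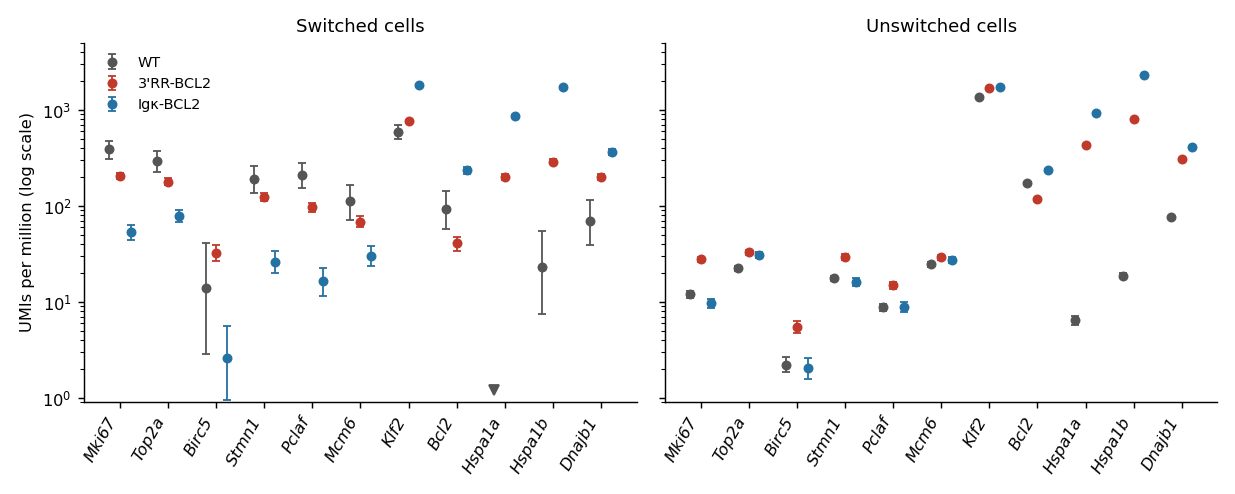
UMIs per 1000000 on a log axis, with exact 95% Poisson intervals, of genes that differed between the libraries in switched cells (left) and the same genes in unswitched cells (right), where a downward triangle marks 0 UMIs. *Mki67* goes from 386 in WT to 52.7 in Igκ-*BCL2* among switched cells and from 11.9 to 9.61 among unswitched cells, while *Hspa1a* and *Hspa1b* are higher in both *BCL2* libraries in either class.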

How the data were processed

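Droplet-based 3′ RNA sequencing of splenic B cells gave 1 library for each of the 3 genotypes. The deposited files hold unnormalised UMI counts for each barcode that was called a cell. The submitters' processing notes name Cell Ranger 6.1.1 and the builds mm10 and hg38. The methods of the study gave the filter: 800 to 4500 genes, no more than 20000 UMIs, no more than 8% of UMIs from mitochondrial genes and 10% or more from ribosomal protein genes. Barcodes with 2 or more *Cd3* UMIs were then removed. The cell limits, the 26 gene lists and the alternatives were chosen with earlier results of these data known. Doublets were not removed, since the methods name no such step.

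Counts were summed per library and class, without 393 immunoglobulin and *Jchain* genes of 32285, and tested with edgeR 4.0.16 (quasi-likelihood, TMM, filterByExpr, library as block, Benjamini-Hochberg, threshold 0.05) in R 4.3.3, and with DESeq2 1.42.0 as an alternative. On simulated counts over 11931 genes for the comparison of all switched with all unswitched cells, the test recovered 76% of 2-fold and 100% of 4-fold changes, with 3 false calls of 179. The changed genes there were well counted in unswitched cells and changed by the same fold in every library. These rates therefore do not carry over to genes with few UMIs or to differences that vary between libraries. Intervals (Clopper-Pearson, Poisson) are exact at 95% confidence (SciPy 1.17.1, NumPy 2.4.6 and pandas 2.3.3 under Python 3.11.15). Each cell was thinned to 2000 UMIs for shares of cells with a gene, and shallower cells were left out. Sequences are from the GRCm38 genome with the GENCODE annotation.

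Genes named from a comparison are up to 15 higher and 15 lower genes of largest difference that passed, with at least 20 UMIs and 1 direction in all libraries, for pairs of genotypes up to 10 and 10 with at least 50 UMIs in either whose intervals lie farthest from a ratio of 1, and members of the lists. Some genes that met the rule are not reported here. The 16 alternative fits included DESeq2, other scaling and filters, stricter or looser limits on cells, thinning, no library block and leaving out each library. Some of them, chosen after seeing the data, left out cells with both kinds of constant gene, shared barcodes or markers of other cells, or limited *Jchain* in both classes.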

Additional observations from a re-analysis of the deposited data

Results flagged for a closer look

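Some listed genes differed between switched and unswitched cells in opposite directions in different libraries, by counting intervals outside 0. The differences between libraries were not tested. Values are log2 ratios of switched over unswitched cells. *Bmf*, a pro-death gene of the *BCL2* family, was at 0.99 in 3′RR-*BCL2* (76 UMIs in switched cells) but at -0.73 in Igκ-*BCL2* (42 UMIs). The dioxin receptor gene *Ahr* was at 1.49 in WT (16 UMIs) and -0.91 in 3′RR-*BCL2* (35 UMIs), and *Bhlhe41* at 1.15 (9 UMIs) and -0.50 (40 UMIs). *S100a6* was at 1.37 in WT and at -4.30 and -2.11 in 3′RR-*BCL2* and Igκ-*BCL2*, where 7 of its 10 WT UMIs lay in 1 cell. *Ahnak* was at 0.77 in WT but at -0.77 and -0.90 in 3′RR-*BCL2* and Igκ-*BCL2*, with 9 of 19 WT UMIs and 49 of 103 3′RR-*BCL2* UMIs in 1 cell each. *Prdm1*, which drives plasma cell formation, was at 4.0 in WT, with 10 of 11 UMIs in 1 cell, and -1.27 in 3′RR-*BCL2*. The haemoglobin genes *Hbb-bs* and *Hba-a1* were at 4.16 and 4.38 in Igκ-*BCL2*, with 57 of 69 and 41 of 52 UMIs in 1 cell, and at -2.18 and -2.03 in 3′RR-*BCL2*.

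Outside the comparisons, 14.3% of the barcodes that the cell filter removed from 3′RR-*BCL2* met the limits for switched cells, and 6.71% of those from Igκ-*BCL2*, above the 2.06% in WT. A switched UMI was found in 4 of 14 *Cd3* cells from 3′RR-*BCL2*, 7 of 16 from Igκ-*BCL2* and 0 of 18 from WT, of which 6, 12 and 8 also met the limits for unswitched cells.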

How the results depend on the processing

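The share of switched cells moved with the limits that define them. In WT (0.272%) it was 0.171% with a minimum of 10 switched UMIs, 0.423% with no *Jchain* limit, 0.151% with at most 1 *Jchain* UMI and 0.174% after thinning. In 3′RR-*BCL2* (8.21%) these were 5.12%, 9.63%, 4.01% and 4.16%, and it was 9.40% with a minimum of 3, 6.29% when switched UMIs had to be 5 times the unswitched, and 7.55% without cells with both kinds. In Igκ-*BCL2* (6.07%) it was 4.36% at a minimum of 10, 4.71% at 5 times, 4.26% with at most 1 *Jchain* UMI, 5.47% without cells with both kinds and 3.27% after thinning. The log2 ratio of 3′RR-*BCL2* to Igκ-*BCL2*, 0.44, was 0.23 at a minimum of 10 and -0.089 with at most 1 *Jchain* UMI, while both ratios to WT kept their direction in all settings run. GC shares moved with depth by construction. Thinned to 1000, then to 4000 UMIs, then with 1 GC gene enough, unswitched cells were at 0.195%, 1.17% and 6.17% in WT, 1.68%, 6.76% and 12.5% in 3′RR-*BCL2* and 0.996%, 5.35% and 8.82% in Igκ-*BCL2*. Switched cells were at 20.2%, 56.7% and 66.9% in 3′RR-*BCL2*, which was 43.0% under stricter limits (at least 10 switched UMIs and 5 times the unswitched), and at 8.97%, 28.5% and 42.7% in Igκ-*BCL2*, and at 11.1% in WT at 1000. Mostly λ cells at 90% of at least 10 UMIs were 0%, 7.55% and 32.9% of switched and 15.1%, 15.3% and 68.1% of unswitched cells, and 0% of switched WT cells under the stricter limits. With 90% of switched UMIs from 1 gene, *Ighg1* cells of 3′RR-*BCL2* were 83.9%, *Ighg2b* 7.46% and *Ighg3* 3.26%, WT *Ighg3* was 0% and Igκ-*BCL2* *Ighg2c* 0.352%, and 3′RR-*BCL2* *Ighg2c* was 0% under the stricter limits.

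Counts of genes moved with the cells and genes tested. Over all switched cells (1291 higher, 1134 lower) they were 617 and 494 by DESeq2, 692 and 619 with at most 1 *Jchain* UMI, 712 and 611 after thinning, and 225 to 1116 and 231 to 913 with a library left out. In cells with 0 GC genes (224 and 192) they were 78 and 41 by DESeq2, 87 and 95 under the stricter limits, 49 and 44 after thinning, and 44 to 272 and 39 to 240 with a library left out, highest without WT. In cells with at least 2 (39 and 128) they were 7 and 24 by DESeq2, 68 and 234 with any gene that had a UMI tested, 24 and 62 after thinning, 24 and 68 without cells with both kinds, 81 lower under the stricter limits, 101 higher under a looser cell filter, 83 higher with *Jchain* limited in both classes, and 4 to 116 and 6 to 229 with a library left out, again highest without WT. The replicate block of this design is the library. Without the block the counts were 951 and 805, 115 and 79, and 5 and 22. Other scaling gave 1217 and 1203 or 1133 and 1275 over all switched cells. Between genotypes, a minimum of 50 UMIs gave 182 in place of 292 lower genes of Igκ-*BCL2* over WT, with 5682 in place of 8013 genes measured. For 3′RR-*BCL2* over Igκ-*BCL2* it gave 84 and 64 in place of 199 and 166, with 6716 in place of 8868 genes measured. Most calls of this last pair were thus on genes with fewer than 50 UMIs in both libraries.

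Of the values of single genes over the alternative settings, 4084 kept their call, 929 lost it and 16 turned. By gene, fewer held throughout. Over all switched cells 62 of 183 genes kept their call in every setting in which they were tested. In cells with 0 GC genes 19 of 83 did so, and in cells with at least 2 GC genes 5 of 56. With at most 1 *Jchain* UMI, *Birc5* was at -1.23, *Cks1b* at -0.023, *Mcm7* at -0.080 and *Ahnak* at 0.15. With a library left out, *Fcrl5* ran from -1.91 to 0.054 and *Ifit3* from -3.98 to 0.22, both turning without 3′RR-*BCL2*. *Hbb-bs* ran from -2.25 to 3.35 and *Hba-a1* from -2.08 to 3.82, and in cells with 0 GC genes *Hbb-bs* from -9.62 to 5.34 and *Hbb-bt* from -1.32 to 4.10, all turning without Igκ-*BCL2*. Without cells with markers of other cells *Hbb-bs* was at -0.91, or -7.60 in cells with 0 GC genes. *Lyz2* ran from -7.55, without WT, to 3.73, and was at -2.76 by DESeq2, -2.59 under the stricter limits and -3.14 without cells with both kinds. The cause was not tested for values that turned without a single cell named above. In WT, 27 switched cells limit every value.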
